A study of Drosophila melanogaster with 24 samples.

Results

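The vacuolar proton ATPase (V-ATPase) genes of the fly were taken from the deposited tables by symbol, as every symbol that starts with Vha followed by a digit or by AC, M, PPA or SFD. This gave 32 genes of the 13395 that are listed on at least 1 day. The study dissociated adult *Drosophila melanogaster* testes, filtered the cells and sequenced their RNA on day 0, day 1, day 3 and day 5 after eclosion. Each day has 3 Ctrl KD and 3 *Set1* KD libraries, 24 in all, each from about 15 pairs of pooled testes. Both genotypes carry *nos-Gal4*, a driver active in early germ cells, with *UAS-mCherry RNAi* in Ctrl KD (labelled WT) and *UAS-set1 RNAi*, against the H3K4me3 methyltransferase gene *Set1*, in *Set1* KD. Flies were kept at 18°C until eclosion and at 25°C from then on. The value used here is the authors' mean normalized count of a gene over the 6 libraries of a day, in which both genotypes are averaged. It has no error and no n per genotype. The level of *Set1* in each genotype was not checked, and the effect of the knockdown on the V-ATPase genes is not analysed here.

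The V-ATPase is a rotary pump of the membranes of lysosomes, endosomes and secretory vesicles, and of the plasma membrane of some epithelia. Its V1 sector in the cytoplasm (subunits A to H) hydrolyses ATP, and its V0 sector in the membrane (subunits a, c, c'', d, e and the accessory subunit Ac45) carries protons across. In the fly, many subunits are encoded by several paralogs, of which one is used broadly and in transporting epithelia such as the Malpighian tubule, whereas others are found mainly in the testis. The sperm acrosome is a lysosome-related organelle, and acidification of such organelles is the work for which the pump is best known.

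The 32 genes fall into 14 subunits by their known roles, of which 8 are encoded by groups of 2 to 5 paralogs (26 genes) and 6 by 1 gene each among the 32. For Ac45 this rests on the symbols, as *CG31030* and *CG5421*, described at the end, have other names tied to Ac45. On the genome (BDGP Release 6), 11 lie on chromosome arm 3R, 8 on 2R, 6 on 2L, 5 on 3L and 2 on X, the latter being *Vha36-3* and *VhaAC39-1*. Of the leading paralogs described below, *Vha36-2* lies at 2R, 12257282 to 12258652, *Vha100-3* at 2R, 18908961 to 18911895, and *VhaM9.7-d* at 3R, 16975204 to 16975697. Several paralogs are neighbours on the same strand. *Vha68-3* (2L, 12978786 to 12981293) begins 178 bases after *Vha68-2* ends, *Vha100-2* and *Vha100-4* are 517 bases apart, *Vha16-3* and *Vha16-2* 985 bases, and *VhaPPA1-2* and *VhaPPA1-1* 2052 bases. Coding sequence without an intron was found for 12 of the 32 genes, including *Vha100-3* (904 residues), *Vha16-2* to *Vha16-5*, *VhaM9.7-d*, both VhaPPA1 genes, *Vha14-1* and *Vha36-1*. Exon counts matter for the levels below because Bowtie 2, with which the authors mapped the reads to the genome, does not split a read over an intron. How many reads each gene lost in this way was not tested.

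Of these genes, 31 are listed at day 0 and 32 on each of days 1, 3 and 5. The exception is *Vha100-4*, with mean normalized counts of 18.3, 25.1 and 20.0 on days 1, 3 and 5. To compare genes, each mean was divided by the length of the gene's merged exons and scaled so that all genes listed that day sum to 1000000, which is called the level from here on. Values in day order are those of days 0, 1, 3 and 5. The median level of all genes was between 9.26 and 11.3 on the 4 days. The top 10% of genes on a day began at a level between 172 and 175.

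By this measure most V-ATPase genes lay above the median gene, and in 4 subunits (A, D, a and e) the most abundant copy was a paralog other than the broadly used one, whichever gene length was used. *Vha68-3*, a paralog of the catalytic A subunit, had the highest level of all members on each day, a rank that depends on the length used. Its level was 455, 518, 463 and 417 in day order, higher than that of 96.5% to 97.4% of genes. With the coding length in place of the exon length, *Vha26* (521 in the median), *Vha16-1* (478) and *Vha13* (437) stood above *Vha68-3* (316). The lowest level was that of *Vha100-4*, at 0.430 to 0.597. The median percentile among all genes, taken over the 4 days, was 78.7 for the middle member of the 31 listed on all days.

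Of the 32 members, 5 stood in the top 10% by their median percentile, where 9.61% of all genes stood. They are *Vha68-3*, *Vha36-2*, *VhaM9.7-d*, *Vha13* and *Vha26*. Neither *Vha13* nor *Vha26* has a paralog here, and they encode the G and E subunits of the peripheral stalks that hold the V1 sector in place. In contrast, *Vha100-4*, *Vha100-5*, *VhaM9.7-a* and *Vha36-3* had median percentiles of 4.91, 23.2, 45.2 and 51.1.

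**Figure D1:**
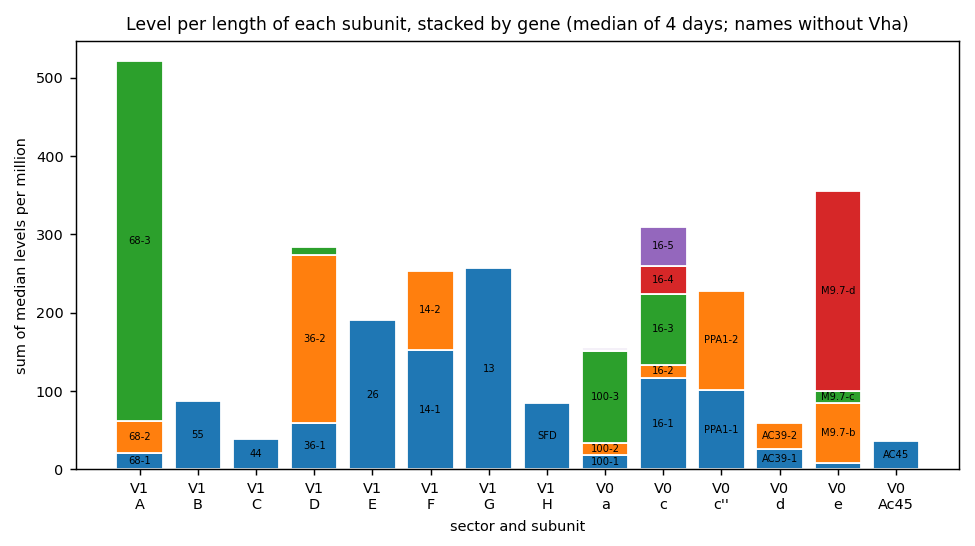
Stacked bars give the median level over the 4 days of each gene (y axis, scaled as above) within its subunit (x axis, V1 sector first), with gene names shortened by leaving out Vha. By the exon length plotted here, the bar of the A subunit is the tallest and is mostly *Vha68-3*, whereas the bars of C, d and Ac45 are the lowest; by the coding length, the c subunit has the largest median sum (639) and A has 378.

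The subunits of one complex did not have similar levels. How many copies of each subunit the complex holds was not taken into account, so unequal levels do not show an imbalance. *Vha55*, the only gene of the B subunit, which forms the head of V1 together with A, had a level of 75.2, 84.4, 97.7 and 89.7 in day order. The 3 genes of the A subunit summed to 514, 574, 537 and 484 on the same days, between 5.39 and 6.84 times the level of *Vha55* (3.27 to 4.12 times with the coding length). *Vha68-3* made up most of that sum. Its 2 relatives *Vha68-1* and *Vha68-2* had a median level of 21.0 and 41.4, each below that of *Vha55*.

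Among the other V1 genes, *VhaSFD*, which encodes the regulatory H subunit, stayed closest to *Vha55*, at 0.929 to 0.974 times its level (1.03 to 1.08 times with the longest transcript as length). *Vha44*, of the C subunit that links V1 with V0, had 0.427 to 0.460 times that level, with 34.6, 36.0, 42.4 and 40.5 in day order. Its longest transcript codes for 836 residues and has 11 exons. Each length used takes in this long form of *Vha44*, which has 5 transcripts. If shorter forms prevail, its level is understated, which was not tested. *Vha13* had levels of 236, 248, 280.4 and 265, and *Vha26* of 179.7, 172, 219 and 202, from day 0 to day 5. These stalk genes thus exceeded *Vha55* on every day, with 2.87 to 3.14 times its level for *Vha13* and 2.04 to 2.39 times for *Vha26*. With the coding length these became 4.07 to 4.45 times for *Vha13* and 4.65 to 5.44 times for *Vha26*, so that the order of the pair turned.

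In the V0 sector, the summed level was 283 to 331 for the proton-carrying c subunit, 217 to 244 for c'' and 345 to 365 for the small e subunit. By the coding length, the sums of c and e were larger, at 536 to 725 and 539 to 580.4. By the exon length, the sum was lower for the a subunit, at 146 to 171 (1.68 to 2.03 times *Vha55*, and 1.01 to 1.20 times with the coding length), and lower still for d, which sits on the c ring, at 50.3 to 69.2. *VhaAC45*, which encodes the accessory subunit Ac45, had a level of 28.6, 31.9, 43.9 and 41.2 in day order. Among the members, that was the lowest subunit level of the sector. Subunit d and Ac45, each summed over its members, were the V0 components below the level of *Vha55* on all 4 days. For Ac45 both statements rest on the symbol rule. It leaves out *CG31030* (44.1 on day 0) and *CG5421* (20.8 on day 0), which have other names tied to Ac45. A sum with these genes was not made.

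**Figure D2:**
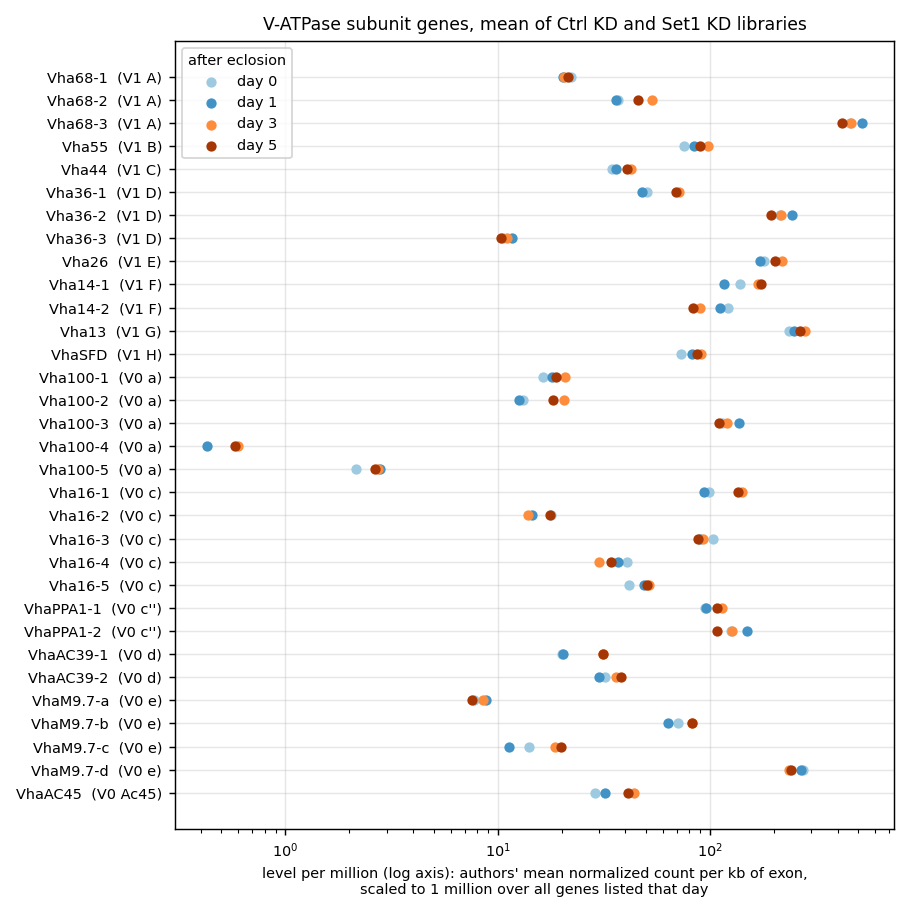
Each row is a V-ATPase gene with its sector and subunit, and each point its level on 1 day (log axis), from the authors' mean over both genotypes. Levels span from 0.430 for *Vha100-4* to 518 for *Vha68-3*.

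Paralogs of the same subunit were then set side by side, as shares of the summed level of their group within a day. Such shares do not depend on how the tables of different days were normalized. They do depend on the length by which counts are divided, because paralogs differ in their untranslated regions. They also depend on reads lost at introns, as paralogs differ in exon count. *Vha68-3* has 2 exons and *Vha68-2* 5, *Vha100-3* has 1 and *Vha100-2* 6. *VhaM9.7-d* has 1 and *VhaM9.7-b* 3, whereas *Vha36-2* has 2 and *Vha36-1* 1. How far this moved the shares was not tested.

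For the A subunit, *Vha68-3* held 88.5%, 90.2%, 86.2% and 86.1% of the group in day order. *Vha68-2*, the broadly used copy, held 7.21%, 6.30%, 9.97% and 9.45%, and *Vha68-1* held 3.52% to 4.44%. The level of *Vha68-3* was thus 8.64 to 14.3 times that of *Vha68-2*. The lead did not rest on the length, as *Vha68-3* held 83.6% in the median with the coding length. The coding sequence of *Vha68-3* has 743 codons, against 614 for each of the other 2 genes.

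The D subunit, part of the central rotor, showed a similar order. *Vha36-2* held 77.7%, 80.4%, 72.3% and 71.0% of the group in day order. *Vha36-1*, the broadly used copy, held 18.4%, 15.7%, 23.999% and 25.2%, and the X-linked *Vha36-3* held 3.70% to 3.88%. Here too the main paralog is the longest, with 373 residues against 246 and 249. The level of *Vha36-2* was 213, 245, 216 and 194 from day 0 to day 5.

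For the a subunit, which forms the proton path next to the c ring, *Vha100-3* held 78.3%, 80.2%, 73.0% and 73.2% on days 0, 1, 3 and 5. *Vha100-1*, known as the copy used in neurons, held 10.5% to 12.5%. *Vha100-2*, the copy of transporting epithelia, held 8.97%, 7.38%, 12.5% and 12.2% in day order. *Vha100-3* was therefore 5.83 to 7.62 times as high as the next paralog. *Vha100-5* held at most 1.76% and *Vha100-4* at most 0.383%. Of the exon sequence of *Vha100-5*, 18.1% overlaps the antisense gene *asRNA:CR44144*, so its count is uncertain.

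For the e subunit, *VhaM9.7-d* held 74.7%, 76.3%, 68.3% and 68.7% on days 0, 1, 3 and 5. *VhaM9.7-b*, the broadly used copy, held 19.3%, 18.0%, 23.8% and 23.5%. *VhaM9.7-c* and *VhaM9.7-a* held at most 5.65% and 2.504%. The lead of *VhaM9.7-d* narrowed with the coding length, by which it held 53.0% in the median and *VhaM9.7-b* 38.4%.

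In the c subunit, the ring that carries protons, no paralog led by far. *Vha16-1*, the broadly used copy, had a level of 98.4, 93.4, 142 and 136 in day order. *Vha16-3* had 103, 89.96, 93.0 and 87.4 on the same days. Their order changed between day 0, when *Vha16-3* was 1.05 times as high, and days 3 and 5, when *Vha16-1* was 1.52 and 1.55 times as high. The difference at days 0 and 1 is too small to read an order from, as no replicate error is at hand.

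This comparison hangs on the untranslated regions. The merged exons of *Vha16-1* measure 3077 bases for 477 coding bases, and those of *Vha16-3* 642 bases for 474. With the coding length, *Vha16-1* held 74.6% of the group in the median and *Vha16-3* 12.6%. By the merged exons, *Vha16-5* held 13.7% to 17.2%, *Vha16-4* 9.11% to 13.4% and *Vha16-2* 4.21% to 5.91%, and by the coding length *Vha16-5* held 5.60% to 7.20% and *Vha16-4* 3.17% to 5.51%. Exons of the antisense gene *asRNA:CR46049* cover 84.5% of *Vha16-2*. Whether counting used strand is not given in the sources used here, so the reads of this pair may not be told apart.

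In the remaining groups, the order by median share turned with the coding length. For the F subunit, *Vha14-1*, the broadly used copy, held 53.0%, 50.9%, 65.2% and 67.6% in day order, and *Vha14-2* the rest. By the coding length, *Vha14-1* held 37.5% in the median. For c'', *VhaPPA1-2* held 57.1%, 61.0%, 52.8% and 49.98% on days 0, 1, 3 and 5, against 37.8% in the median by the coding length. For d, *VhaAC39-2* held 61.4%, 59.5%, 53.4% and 54.9%, against 47.9% in the median by the coding length, with which it still led on days 0 and 1. In these 3 groups the data name no leading paralog.

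The balance between paralogs differed between the days, under each of the 4 ways of treating length. A length scales a gene alike on every day, so this sameness says little. For F, c'' and d, with a pair of paralogs each, the order of days could not change with it. In each of the 8 groups, the share of the broadly used paralog was higher at both day 3 and day 5 than at day 0 and at day 1. These 8 paralogs were named from their known use in other tissues, after the values had been seen. Of the other paralogs listed on all days, *Vha100-1*, *Vha100-5* and *VhaM9.7-c* also had a higher share on both later days. In the a group *Vha100-3* alone was lower, so the pattern there is not particular to *Vha100-2*. In bulk RNA such as this, fewer cells of a type and less RNA per cell cannot be told apart. The gap between the means of the later and the earlier days was largest for *Vha14-1*, with 66.4% against 52.0%. It was 42.3% against 32.8% for *Vha16-1*, 48.6% against 40.9% for *VhaPPA1-1* and 24.6% against 17.1% for *Vha36-1*. *VhaAC39-1* had 45.9% against 39.6% and *VhaM9.7-b* 23.7% against 18.6%. The smallest gaps in points were those of *Vha100-2*, with 12.3% against 8.18%, and *Vha68-2*, with 9.71% against 6.75%.

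**Figure D3:**
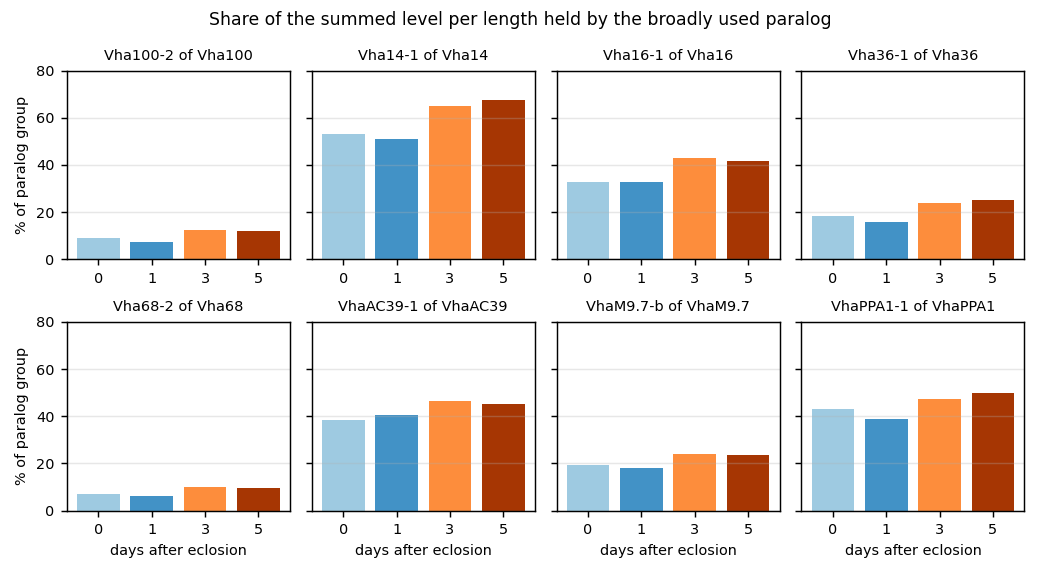
Each panel gives, for 1 paralog group, the share of the group's summed level held by the broadly used paralog (y axis, percent) on days 0, 1, 3 and 5 (x axis), 1 pooled value a day without error. In all 8 panels the bars of days 3 and 5 are taller than those of days 0 and 1.

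The levels themselves were compared in the same way, with the later days (3 and 5) called higher when both exceeded both earlier days (0 and 1). The tables of the 4 days were normalized separately, and the scaling of each day to the same sum stands in for a common one. Of 12229 genes with a level on all 4 days, 41.8% were higher on the later days and 22.1% were lower. Among the 31 V-ATPase genes listed on all days, 18 were higher, 3 were lower and 10 followed neither pattern. The count of 18 therefore has to be read against a large background of genes with the same pattern. The median ratio of later to earlier mean level was 1.14 for the members and 1.05 for all genes.

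The pattern was unequal within the family. All 8 broadly used paralogs were higher on the later days, with a median ratio of 1.39. So were the 6 genes without a paralog among the members, with a median of 1.17. *VhaAC45*, which is among these 6 only by the symbol rule, had their largest ratio, 1.41. Of the other 17 paralogs listed on all days, 4 were higher, 3 were lower and 10 followed neither pattern, and their median ratio was 0.960. For all genes, the interquartile range of this ratio was 0.917 to 1.26.

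*VhaAC39-1*, of the d subunit, had the largest ratio, 1.55, with levels of 20.1 and 20.4 on days 0 and 1 and of 31.5 and 31.2 on days 3 and 5. *Vha100-2* went from 13.1 and 12.6 to 20.6 and 18.3, a ratio of 1.51. *VhaM9.7-c*, which is not among the broadly used copies, had a similar ratio of 1.52 from levels of 14.1, 11.3, 18.7 and 19.8. These 3 genes lie beyond the upper quartile of all genes, as do *Vha16-1* (1.45), *Vha36-1* (1.43), *VhaAC45* (1.41), *Vha68-2* (1.36) and *Vha14-1* (1.35).

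At the other end stood *Vha14-2*, the second gene of the F subunit, with a ratio of 0.742. Its levels were 122, 112, 89.9 and 83.6 in day order. *Vha16-4*, of the c subunit, had 40.6, 36.8, 30.1 and 34.0, a ratio of 0.828. *VhaM9.7-d* had 273, 268, 235 and 241, a ratio of 0.881. These 3 were the members lower on both later days. The abundant *Vha68-3*, *Vha36-2* and *Vha100-3* had ratios of 0.905, 0.896 and 0.918 and followed neither pattern, since their level at day 3 lay above that at day 0.

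**Figure D4:**
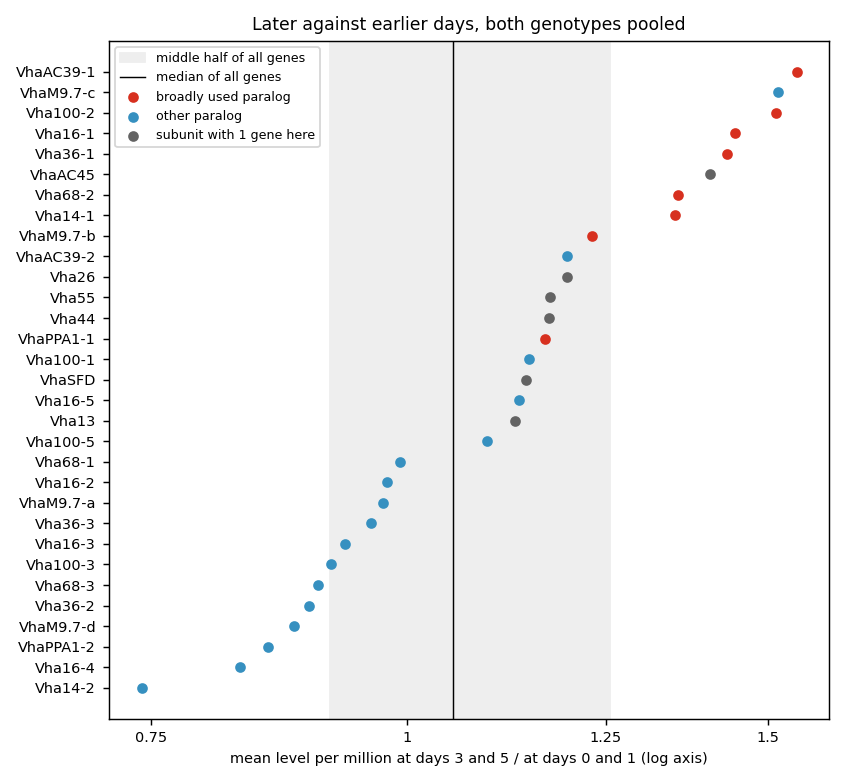
Points give the ratio of the mean level at days 3 and 5 to that at days 0 and 1 (x axis, log scale) for the 31 V-ATPase genes listed on all days, coloured by kind of paralog. The line marks the median of all genes (1.05) and the grey band their interquartile range; the broadly used paralogs all lie right of the line and the lowest 12 points are other paralogs.

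The count of members with the pattern rests on the scaling. In mean normalized counts as deposited, 10 of the 31 members were higher on the later days and 28.4% of all genes. On that scale 7 of the 8 broadly used paralogs were higher, but 1 of the 6 genes without a paralog among the members (*VhaAC45*) and 2 of the 17 other paralogs. By percentile among the genes of a day, 14 were higher and 6 were lower, against 27.8% and 26.9% of all genes. Those higher were 8 broadly used paralogs, 4 genes without a paralog among the members and 2 other paralogs. Each day has 1 value per gene, made from both genotypes, so a difference between days may come from Ctrl KD testes, from *Set1* KD testes or from both, which were not separated here. The spread between libraries is likewise unknown, and no test was made.

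Cell type markers showed what the RNA held and how it differed between days. The labels call the samples germ cells, and genes of late germ cells were indeed among the most abundant, with 5 of 9 in the top 10% and *Mst87F* and *betaTub85D* at median percentiles of 99.9 and 99.8. Markers of somatic cells were present too, so the samples also held RNA of other cells of the testis. The summed level of the late germ cell list was 10799, 10722, 9976 and 9957 on days 0, 1, 3 and 5. Most of it came from the 5 genes in the top 10%, as *aly*, *can*, *sa* and *mia* had levels of at most 54.1. Of the list, 3 genes (*aly*, *sa* and *mia*) were higher on the later days, 1 (*Mst87F*) was lower and 5 followed neither pattern. The summed level of early germ cells (*vas*, *bam* and *zpg*, without *nos*, for which no exon length was matched) was 10.8, 11.9, 19.6 and 17.6. All 3 genes were higher on the later days. The 3 cyst lineage genes (*tj*, *zfh1* and *eya*) summed to 24.7, 23.9, 30.0 and 29.6 and were each higher as well, whereas the 3 hub genes followed neither pattern, with 16.5 to 20.0.

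The sheath muscle genes *Mhc*, *Act57B* and *Tm2* summed to 1142, 801, 485 and 347 in day order, and all 3 were lower on the later days. Of the pigment and fat cell list, *w* had 92.0 to 105, *Lsp1beta* and *Fbp1* were listed at day 0 alone with levels of 0.881 and 1.07, and *Yp1* was not listed on any day. Marker levels of early germ and cyst cells were thus higher on the later days, as were those of *aly*, *sa* and *mia*. Those of muscle cells and of *Mst87F* were lower, and those of hub cells followed neither pattern. These patterns rest in part on the scaling. By percentile, *Mst87F* was not lower, with 99.882 on day 0 and 99.884 on day 3, whereas *can* and the hub gene *Fas3* were lower and *dj* was higher. The cyst gene *eya* stayed higher by little, with 64.76 on day 0 and 64.82 on day 5. Markers were not compared in mean normalized counts as deposited. The shares of the broadly used paralogs were also higher on the later days, as were the levels of 41.8% of all genes. The part of cell makeup in the paralog shares was not tested.

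Other genes of acid compartments were described from a list of 21, chosen by function, of which 19 had a level. Their median percentile was 65.3, and 2 of them were in the top 10%, the lysosomal membrane gene *Lamp1* and the cathepsin gene *Cp1*. On the later days 15 of the 19 were higher and 0 were lower, with a median ratio of 1.27, against 41.8% of all genes higher and a median of 1.05. This count too rests on the scaling. By percentile, where 27.8% of all genes were higher, *Rbcn-3A*, *Npc1a*, *spin* and *Hexo1* lost the pattern. The list was not compared in mean normalized counts as deposited. *Cp1* had levels of 261, 268, 475 and 456, and *CtsB1*, a cathepsin B gene, had 79.8, 79.9, 131 and 133. *Npc2a*, which encodes a sterol-binding protein of lysosomes, had 65.7, 86.1, 130 and 121. *Rbcn-3A* and *Rbcn-3B*, whose products help to assemble V1 with V0, had low median levels of 5.11 and 3.46, at percentiles 35.6 and 28.2. *Mitf*, the transcription factor that regulates V-ATPase genes in the fly, had 11.2, 10.1, 13.0 and 14.3.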

How the data were processed

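RNA-seq was made from 24 testis libraries. According to the methods, the authors mapped reads with Bowtie 2 version 2.5.1 to dm6 (BDGP Release 6), summarised them to genes with featureCounts and, separately for every day, normalized them with DESeq2. The deposited mean normalized count, a signal averaged by the authors over the 6 libraries of a day and both genotypes, is the only column used. The tables also hold the authors' own comparison of the genotypes (a log2 fold change with its error, statistic and p-values), which was not used. Values and depth per library were not used here, so precision is unknown. The means of a day sum to between 16.2 and 22.3 times 1000000.

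Each mean was divided by the merged exon length of the gene (Ensembl release 115, same genome release, perhaps not the authors' annotation) and scaled to a sum of 1000000 a day. Of 13395 symbols, 13370 matched. The 15 mitochondrial genes held 5.79% to 7.71% of the summed level. All members are named. Top 10% means a percentile of at least 90. Members, gene lists and roles were chosen with earlier results of these data known, and the comparison of later with earlier days after its values were seen. No sequence was used. The arithmetic was tested on simulated data. Python 3.11.15, numpy 2.4.6, pandas 2.3.3 and matplotlib 3.10.9 were used.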

Additional observations from a re-analysis of the deposited data

How the results depend on the processing

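With the longest transcript as length, the highest paralog of every group was the same gene and its median share moved by less than its SD over the days. With each day left out in turn, the highest paralog was again the same gene. Its median share then moves by less than the SD over the 4 days whatever the values, so that shift tests nothing. With the coding length, another paralog led in 3 groups: the median share was 37.5% for *Vha14-1*, 47.9% for *VhaAC39-2* and 37.8% for *VhaPPA1-2*. With no division by length it was 36.6%, 47.9% and 37.8%. With the coding length the share also moved for *Vha16-1* (74.6%), *Vha36-2* (70.1%), *Vha68-3* (83.6%) and *VhaM9.7-d* (53.0%), and with no division by length for *Vha16-1* (73.7%) and *VhaM9.7-d* (53.0%). In mean normalized counts as deposited, 10 members were higher on both later days, against 18 by the level, a scale chosen after seeing the data. The count of 8 paralog groups was the same under each of the 3 other lengths. As a length scales a gene alike on every day, this says little, and for F, c'' and d it was fixed in advance. The level itself moved by more than its SD over the days for 25 of the 32 members with the coding length, for 1 with the longest transcript and for 2 without mitochondrial genes. Against *Vha55*, the summed level of each other subunit but Ac45 moved by more than its SD with the coding length, and subunit H went from 0.971 to 1.07 times with the longest transcript, lengths tried for these ratios after seeing the data. The count in the top 10% was 5 of 32 members, or 7 with the coding length. Leaving out single libraries was not run. No paired analysis was possible because the columns used carry no value per library.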

Other observations

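A further 3 genes have a name tied to the V-ATPase but another symbol in the tables, and so were not counted among the 32. They were picked after their values had been seen. *ATP6AP2*, an accessory subunit gene with the synonym VhaM8.9, had levels of 83.6, 89.0, 117 and 115.2 on days 0, 1, 3 and 5. *CG31030*, which the annotation calls VhaAC45RP, had 44.1, 44.9, 24.7 and 23.6, and *CG5421*, with the synonym VhaAC45-2, had 20.8, 17.7, 18.5 and 20.3. *CG31030* was thus above *VhaAC45* on days 0 and 1 and below it on days 3 and 5.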
